A study of Mus musculus with 6 samples.

Results

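Potassium channel genes of the mouse hippocampus were taken as every symbol of the Kcn family, that is Kcn followed by a letter and a digit (Kcna1) or by a 2-letter subfamily and a digit (Kcnma1, Kcnip1). The symbol of each isoform was its transcript name without the final number. Of 99 symbols that start with Kcn, 93 met this rule, and the 6 left out were the antisense genes, Kcnq1ot1 and Kcnrg. The 93 genes were among 53354 symbols, and their 377 isoforms were among 133944. Whole hippocampi of 3-month-old C57BL/6 mice were sequenced from total RNA, 3 N-cre controls and 3 N-cre;Fox1 mice. All 6 mice carried Nes-Cre, a Cre recombinase driven by the nestin promoter. The N-cre;Fox1 mice also carried 1 copy of R26-Rbfox1 flox, an Rbfox1 cDNA at the Gt(ROSA)26Sor locus behind the CAG promoter and a loxP-flanked stop cassette that Cre removes. The comparison asks which transcripts differ when Rbfox1, an RNA-binding splicing regulator, is raised.

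Potassium channels let potassium ions leave or enter a cell and so set its resting potential, the width of its action potentials and the rate at which it fires. Voltage-gated Kv channels open on depolarization, calcium- or sodium-activated channels respond to ions that enter during firing, and inward rectifiers and tandem-pore domain channels carry current near rest. Kv subunits of the electrically silent kind form no channel alone and modify other Kv subunits, and auxiliary subunits change the gating, assembly or trafficking of the pore. In the hippocampus A-type and M-type currents limit the excitability of pyramidal neurons, and inward rectifiers of astrocytes take up potassium that neurons release.

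Total expected counts per mouse ran from 40463587 to 62141336, and the 93 genes took between 0.518% and 0.541% of them. Expected counts are read counts that RSEM divides among isoforms that share sequence. Rbfox1, the gene raised by the allele, was read first as a check of the labels. Its sum over isoforms overlapped between genotypes (log2 difference 0.01, SE 0.057), as did its more abundant isoform Rbfox1-201 (-0.05, SE 0.067). Rbfox1-202 stood at 33.1, 33.6 and 35.5 CPM (counts scaled to library size) in N-cre mice and 45.9, 40.9 and 44.4 CPM in N-cre;Fox1 mice. These values do not overlap (log2 difference 0.36, SE 0.059). By edgeR the unadjusted p was 6.9e-04 and the p adjusted over all isoforms was 0.623. The study reports a modest rise of hippocampal Rbfox1 mRNA, without showing the data, and a rise of Rbfox1 protein by immunoblot. The sum of sequencing counts over isoforms here does not show the mRNA rise, and these data do not measure protein. Summed markers of pyramidal cells lay between 1167 and 1351 CPM and those of granule cells between 293 and 347 CPM, and no marker of either list was at 0. Summed choroid plexus markers were 2280 CPM in N-cre replicate 3 and 5137 CPM in N-cre;Fox1 replicate 2, against 31.5 to 41.9 CPM in the other 4 mice. Xist was above 1000 counts in replicate 1 of each genotype and at 22 or below in the rest. No label says how the mice are related, and p-values measure only the spread between these 6 mice.

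No potassium channel gene differed between the genotypes after adjustment over all genes. Kcnj10, the main inward rectifier of astrocytes, came closest and was higher in all 3 N-cre;Fox1 mice. Among the 44 most abundant channel genes other than Kcnj13, Kcnj10 included, the differences lay between -0.14 and 0.22 on the log2 scale. Of 184 member isoforms tested, 7 (3.8%) had an unadjusted p under 0.05, near the background of 4.78%. They included a retained-intron form of Kcnip2, a minor form of Kcns3 and the only isoform of Kcnj10.

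Sequences are shown for the coding ends and introns at which the isoforms of Kcnj6 and Kcnip2 part, since these isoforms carry differences in share described further on. They were read from GENCODE M21 transcripts on mm10, 5′ to 3′ on the minus strand of each gene. Lower case marks the 15 shared bases before the point where both isoforms of a pair part, and capitals mark the 15 bases that follow in the isoform named. The capitals of Kcnip2-209 are the start of the next exon, which Kcnip2-204 also holds after its intron.
Kcnj6-202: tgacggagaggaatgGTGACGTGGCAAACC
Kcnj6-201: tgacggagaggaatgGGTGATGCTGGGCTC
Kcnip2-204: cctcagtcagtgaaaGCAAGTGTCTCACCT
Kcnip2-209: cctcagtcagtgaaaCATTAGCTGCCCCAG
The stretch of Kcnj6-202 is continuous at chr16:94762383-94762412, whereas Kcnj6-201 leaves the exon at position 94762398 and goes on at position 94749270. The Kcnip2-204 stretch is continuous at chr19:45797076-45797105, and Kcnip2-209 passes from position 45797091 to position 45796332. Both Kcnj6 isoforms have another version number in M21 than in the files, so their printed bases come from the later version.

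Levels are given as TPM (expected counts divided by transcript length and scaled to the same total in each mouse) when genes are compared with each other. They ran from 434 TPM for Kcnab2 down to genes with hardly a read. Of the 93 genes, 5 had a mean of at least 100 TPM, 45 at least 10 TPM, 26 between 1 and 10 TPM and 22 under 1 TPM. The 10 highest took 52.8% of the summed TPM of all members. Auxiliary subunits took 34.9% of it, Kv1 to Kv4 channels 18.9%, inward rectifiers 14.2% and KCNQ channels 11.1%. The remaining classes took 6.64% (calcium- or sodium-activated), 5.31% (electrically silent), 4.87% (tandem-pore) and 4.05% (EAG, ERG and ELK). In the order of mean levels 86 of 92 neighbouring pairs overlapped in their values per mouse, so most places in the order are not resolved. All members together summed to 2971, 2880 and 2929 TPM in controls, against 2965, 2867 and 2941 TPM in mice with the Rbfox1 allele, and no class separated the genotypes by its sum.

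**Figure D1:**
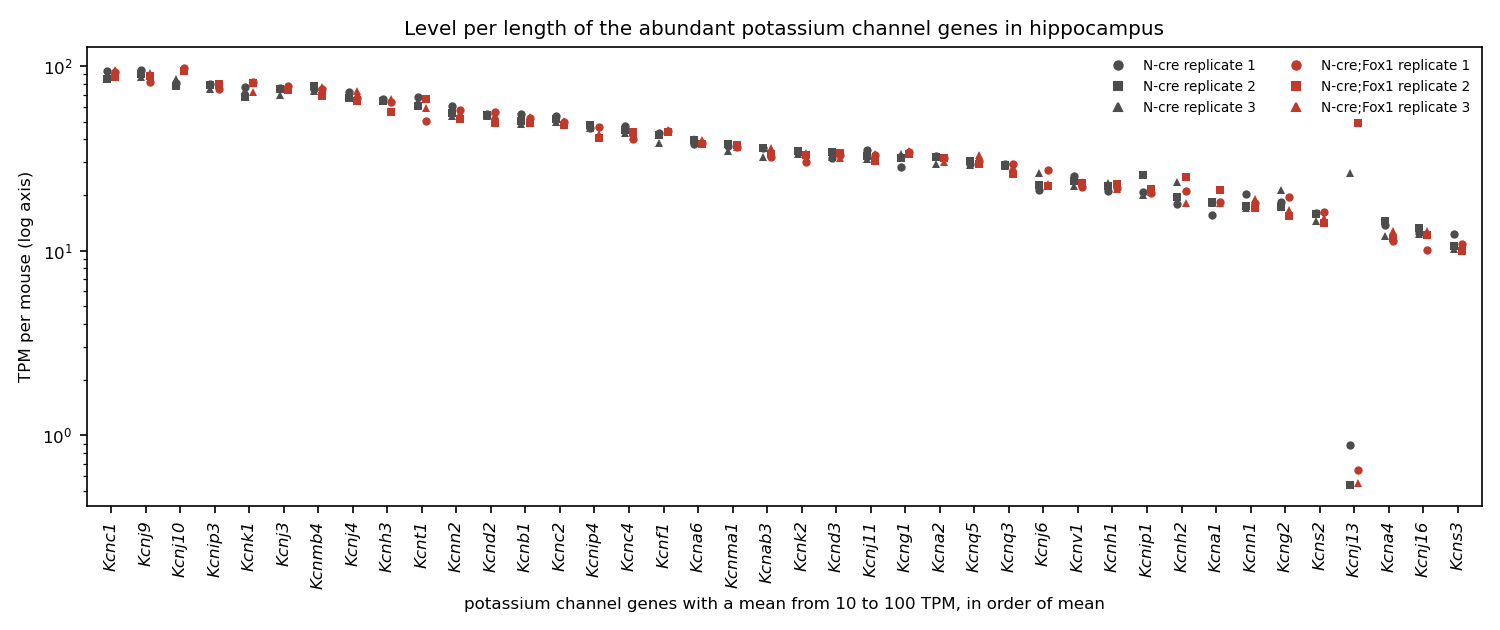
TPM of the 40 potassium channel genes with a mean from 10 to 100 TPM, in order of their mean, on a log axis, with 1 point per mouse. The points of a gene lie close together except for Kcnj13, which is at 26.3 and 49.4 TPM in 2 mice and under 1 TPM in 4.

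Auxiliary subunits held 3 of the 5 members over 100 TPM. Kcnab2, a beta subunit of Kv1 channels, stood at 456, 427 and 441 TPM in N-cre and 453, 389.8 and 436 TPM in N-cre;Fox1 mice, above every other member in each mouse. Kcnip2, a calcium sensor that binds Kv4 subunits, had 209 ± 10.4 TPM (SD, n = 6). Kcnab1, another Kv1 beta subunit, had 105 ± 7.92 TPM (SD, n = 6). Of the 14 auxiliary subunits tested, 4 had a positive and 10 a negative log2 difference, with a median of -0.04, and none had an unadjusted p under 0.05. Kcne1l was lower in every N-cre;Fox1 mouse, at 3.45 to 3.70 CPM against 3.97 to 4.64 CPM (unadjusted p = 0.0589).

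KCNQ channels, which carry the M-current in neurons, included Kcnq5 at 30.2 ± 1.38 TPM and Kcnq3 at 28.5 ± 1.26 TPM (SD, n = 6). Kcnq1, low in this tissue, stood at 0.275 to 0.493 CPM in controls and, just above them, at 0.502 to 0.643 CPM with the allele (unadjusted p = 0.172). Of the 5 KCNQ genes none had an unadjusted p under 0.05.

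In the Kv1 to Kv4 class Kcnc1, a Kv3 subunit of fast-firing neurons, had 89.9 ± 4.15 TPM (SD, n = 6), while Kcnd2, the main A-type Kv4 subunit of hippocampal dendrites, had 53.8 ± 2.47 TPM. Of 15 tested genes in this class 5 were positive and 10 negative, with a median log2 difference of -0.01. Kcnc4, another Kv3 subunit, was the only one with an unadjusted p under 0.05 (6.67%, background 6.19%). It stood at 73.9, 70.3 and 68.1 CPM in N-cre and 62.9, 67.6 and 67.8 CPM in N-cre;Fox1 mice, so the highest N-cre;Fox1 mouse came within 1 CPM of the lowest control (log2 difference -0.10, SE 0.043, unadjusted p = 0.0416, adjusted p = 0.799). It was -0.06 without N-cre replicate 1 or without N-cre;Fox1 replicate 1.

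The electrically silent subunits were led by Kcnf1 with 42.8 ± 2.48 TPM, Kcng1 with 32.6 ± 2.24 TPM and Kcnv1 with 23.4 ± 1.12 TPM (SD, n = 6). Kcnf1, a partner of Kv2 channels, had 88.6, 86.0 and 78.1 CPM in N-cre and 91.5, 88.2 and 92.2 CPM in N-cre;Fox1 mice. The groups overlapped, at a log2 difference of 0.10 (SE 0.047, unadjusted p = 0.0488, adjusted p = 0.799), which was 0.06 without N-cre replicate 3. Kcns1 had 9.29, 9.38 and 9.10 CPM in N-cre and 8.01, 7.69 and 8.77 CPM in N-cre;Fox1 mice, without overlap (unadjusted p = 0.0589). Kcng4 was the other silent subunit without overlap among 8 tested (background 12.1%). It had 8.11 to 8.62 CPM against 7.48 to 8.08 CPM (unadjusted p = 0.232).

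EAG, ERG and ELK channels, a Kv family that includes the channel of the cardiac rapid delayed rectifier current, were led by Kcnh3 with 63.8 ± 3.68 TPM, Kcnh1 with 22.1 ± 0.852 TPM and Kcnh2 with 20.8 ± 2.93 TPM (SD, n = 6). All 8 genes were tested, and none had an unadjusted p under 0.05 or separated the genotypes.

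Of 8 calcium- or sodium-activated channels tested, 2 had an unadjusted p under 0.05, both lower in N-cre;Fox1 mice (background 2.6% lower). A class of 8 genes is too small for its share to be read. Kcnt1, a sodium-activated channel with 61.5 ± 6.28 TPM (SD, n = 6), had 113.9, 109.5 and 110.1 CPM in N-cre and 90.9, 109.4 and 101.7 CPM in N-cre;Fox1 mice. The replicate 2 value of N-cre;Fox1 lay just under the lowest control (log2 difference -0.14, SE 0.061, unadjusted p = 0.0442, adjusted p = 0.799). It was -0.07 without N-cre;Fox1 replicate 1 and -0.21 without N-cre;Fox1 replicate 2. Kcnn4, the intermediate-conductance calcium-activated channel, was near the detection limit, with 0.388, 0.268 and 0.419 CPM in N-cre and 0.149, 0.223 and 0.203 CPM in N-cre;Fox1 mice (log2 difference -0.89, SE 0.35, unadjusted p = 0.0279, adjusted p = 0.782). The N-cre mice met the filter on low counts by themselves, and the N-cre;Fox1 mice did not (8 expected counts in the lowest). A filter of at least 10 counts in every mouse left Kcnn4 out. The other leading genes of the class were Kcnn2, a small-conductance channel, with 55.7 ± 3.19 TPM and Kcnma1, the large-conductance channel, with 36.5 ± 1.02 TPM. Kcnma1 had the most isoforms of any member, 38, yet Kcnma1-205 took 99.6% of its counts.

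Tandem-pore channels carry background current. Kcnk1 had 75.8 ± 5.31 TPM, Kcnk2 33.1 ± 1.56 TPM and Kcnk4 8.59 ± 0.817 TPM (SD, n = 6). Kcnk2, a channel opened by membrane stretch and lipids, had 42.9, 43.7 and 41.77 CPM in N-cre and 37.8, 39.8 and 41.76 CPM in N-cre;Fox1 mice. The groups were separated by less than 0.02 CPM (log2 difference -0.10, SE 0.046, unadjusted p = 0.0453, adjusted p = 0.799), a difference of -0.06 without N-cre;Fox1 replicate 1.

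Of the 93 genes, 81 passed the filter on low counts, and the 12 others had at most 11 expected counts in any mouse. By the quasi-likelihood test of edgeR, adjusted after Benjamini and Hochberg, 0 members were called at an adjusted p under 0.05, while 5 of all 18924 genes tested were (0.0264%). The DESeq2 Wald test called 1 member, Kcnj10, and 49 of all genes, and limma-voom called 0 members. At an unadjusted p under 0.05 stood 6 members (7.41%), which is near the background of 6.19%. Of these 6, Kcnj10 and Kcnf1 were higher (background 3.59%) and Kcnc4, Kcnt1, Kcnk2 and Kcnn4 were lower (background 2.6%) in N-cre;Fox1 mice. The count dropped to 2 without N-cre replicate 2 (background 3.88%), to 3 without N-cre replicate 3 (background 4.71%) and to 2 by DESeq2 (background 3.84%). It was 9 without N-cre;Fox1 replicate 2 (background 6.66%) and 9 with a term for Xist (background 6.78%). The genotypes did not overlap for 9 members (11.1%), 2 higher and 7 lower, against 12.1% of all genes. The median log2 difference was -0.02 over the 81 members, of which 32 were positive and 49 negative, and 0.00 over all genes.

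**Figure D2:**
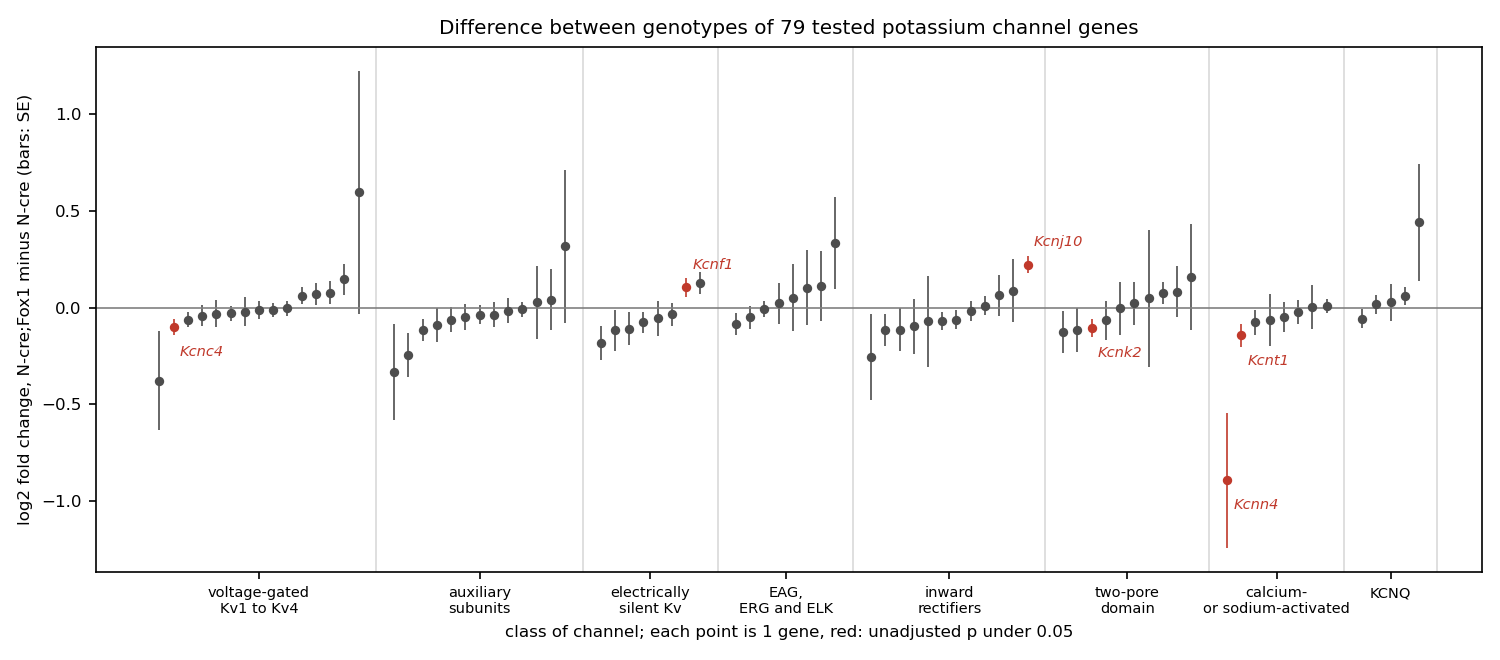
Log2 difference between genotypes (N-cre;Fox1 minus N-cre, bars are the SE) of 79 tested members by class, without Kcnj13 and Kcne2, whose SE is above 2. The 6 genes with an unadjusted p under 0.05 are red and named, and most points lie within 0.1 of 0.

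The replicates were tight for the abundant members. Of the 44 with at least 10 TPM other than Kcnj13, 35 had a log2 difference within 0.1 of 0, and the median SE was 0.053. Signs leaned to lower values in N-cre;Fox1 mice, with 13 positive and 31 negative. N-cre;Fox1 replicate 2 was the lowest mouse for 19 of the 45 abundant members (42.2%), against 23.3% of all tested genes. The same mouse had the lowest summed pyramidal cell markers, 1167 CPM against 1279 and 1314 CPM in the other N-cre;Fox1 mice and 1319 to 1351 CPM in N-cre mice. It was also lowest in markers of granule cells (293 CPM), neurons in general (5261 CPM), microglia (237 CPM) and oligodendrocyte precursors (251 CPM). In the other cell type lists it was not the lowest. N-cre replicate 1 was the highest mouse for 33.3% of the abundant members, against 14.2% of all tested genes. The part of these mice and markers in the leaning of the signs was not tested.

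Kcnj10 lies on chr1:172341210-172374085 on the plus strand and has 1 annotated isoform, so its count does not depend on a division between isoforms of its own. Its expected counts were not whole numbers in every mouse (7981.48 in the lowest), so reads shared with other genes enter in part. It had 188, 179 and 197 CPM in N-cre mice and 227, 213 and 217 CPM in N-cre;Fox1 mice. Every N-cre;Fox1 mouse was above every control, at a log2 difference of 0.22 (SE 0.042, unadjusted p = 3.1e-04, adjusted p = 0.307). Its unadjusted p was under 0.05 in all 16 alternative fits, with differences between 0.19 and 0.28. The adjusted p lay between 0.00173 and 1 among them and was under 0.05 by DESeq2 (0.00173) and without the filter on low counts (0.00543). Kcnj16, whose product assembles with that of Kcnj10 in astrocytes, stood at 19.6, 20.4 and 19.2 CPM in N-cre and 15.9, 18.7 and 20.02 CPM in N-cre;Fox1 mice. Its values overlapped and its difference had the opposite sign (log2 difference -0.11, SE 0.081, adjusted p = 0.90). That difference was -0.02 without N-cre;Fox1 replicate 1, the mouse with the lowest value.

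Of 8 astrocyte markers, all tested, 4 were positive and 4 negative with a median log2 difference of 0.00, and none was at 0 in any mouse. At an unadjusted p under 0.05 stood Gfap, an intermediate filament (0.38, adjusted p = 0.320), Aqp4, the water channel of astrocyte endfeet (0.21, adjusted p = 0.595), and Gja1, a gap junction protein (0.10, adjusted p = 0.756), all higher in N-cre;Fox1 mice. Slc1a3, a glutamate transporter, was at -0.02 and Aldh1l1 at -0.14. The markers summed to 2346, 2229 and 2249 CPM in N-cre and 2576, 2332 and 2436 CPM in N-cre;Fox1 mice, which overlap. Kcnj10 amounted to 7.99%, 8.02% and 8.75% of that sum in N-cre and 8.79%, 9.15% and 8.93% in N-cre;Fox1 mice, without overlap (two-sided exact permutation p = 0.1, the smallest that 3 against 3 mice allow). Kcnj16 amounted to 0.834%, 0.914% and 0.852% in controls and 0.615%, 0.801% and 0.822% with the allele, lower and also without overlap (exact permutation p = 0.1). The part of these markers in the difference of Kcnj10 was not tested. In bulk tissue more cells of a type and more RNA per cell cannot be told apart.

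**Figure D3:**
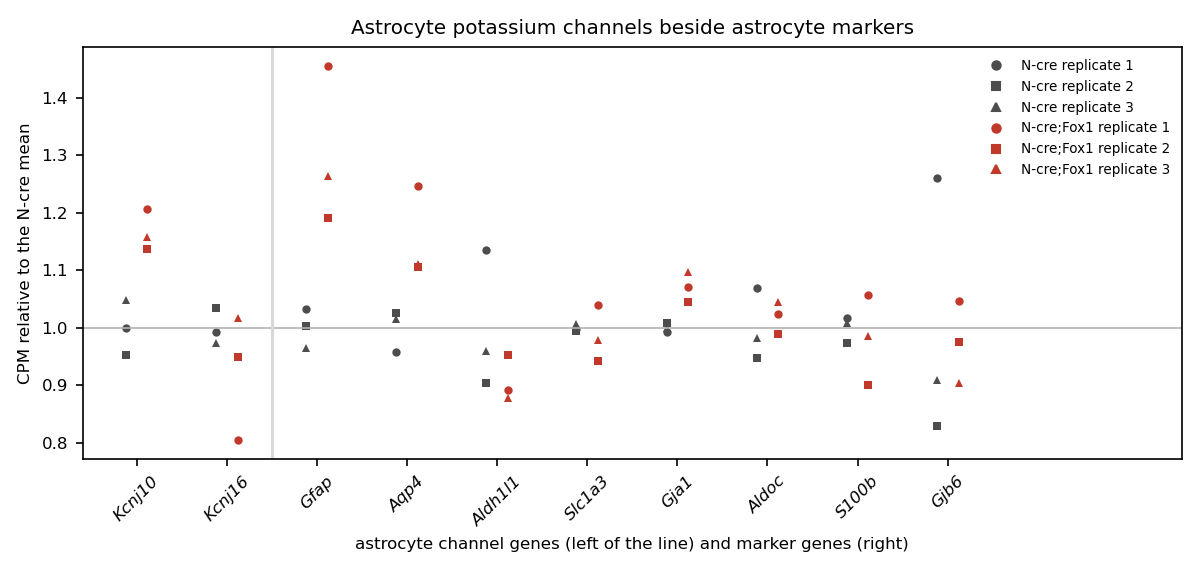
CPM of Kcnj10, Kcnj16 and 8 astrocyte markers in each mouse, relative to the mean of the 3 N-cre mice. Kcnj10, Gfap, Aqp4 and Gja1 lie above all controls in the 3 N-cre;Fox1 mice, and the other genes overlap.

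Beside Kcnj10 the most abundant inward rectifiers were neuronal. Kcnj9 and Kcnj3, subunits of G protein-gated channels, had 89.2 ± 4.47 and 74.6 ± 3.07 TPM (SD, n = 6), beside 88.2 ± 8.14 TPM of Kcnj10. Of 13 inward rectifiers tested 5 were positive and 8 negative, and only Kcnj10 had an unadjusted p under 0.05 (7.69%, background 6.19%).

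Kcnj13 and Kcne2, a potassium channel and an auxiliary subunit known from the choroid plexus epithelium, were high in the same pair of mice as the markers of that epithelium. Kcnj13 was at 0.482, 0.290 and 14.3 CPM in N-cre and 0.351, 26.4 and 0.297 CPM in N-cre;Fox1 mice. Kcne2 was at 0.130, 0.179 and 9.84 CPM in N-cre and 0.242, 22.4 and 0.203 CPM in N-cre;Fox1 mice. Both genes were thus high in N-cre replicate 3 and N-cre;Fox1 replicate 2 and under 0.5 CPM in the others. Their log2 differences of 0.88 (SE 2.4) and 1.21 (SE 2.5) were far inside the spread, and that of Kcnj13 was -0.27 without those 2 mice. As a percent of the summed markers in the same mouse Kcnj13 overlapped between genotypes. Kcne2 was at 0.411% to 0.432% in controls and 0.436% to 0.653% with the allele (exact permutation p = 0.1). In the 2 mice with high counts it was nearly equal, 0.432% in N-cre replicate 3 and 0.436% in N-cre;Fox1 replicate 2. The other 4 values rest on few counts, down to 8 in the lowest mouse. In the same 4 mice, a choice made after seeing the data, the log2 difference of Kcnj10 was 0.28 (adjusted p = 0.0835), and 7 members (8.64%) stood at an unadjusted p under 0.05, beside 5.74% of all genes.

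**Figure D4:**
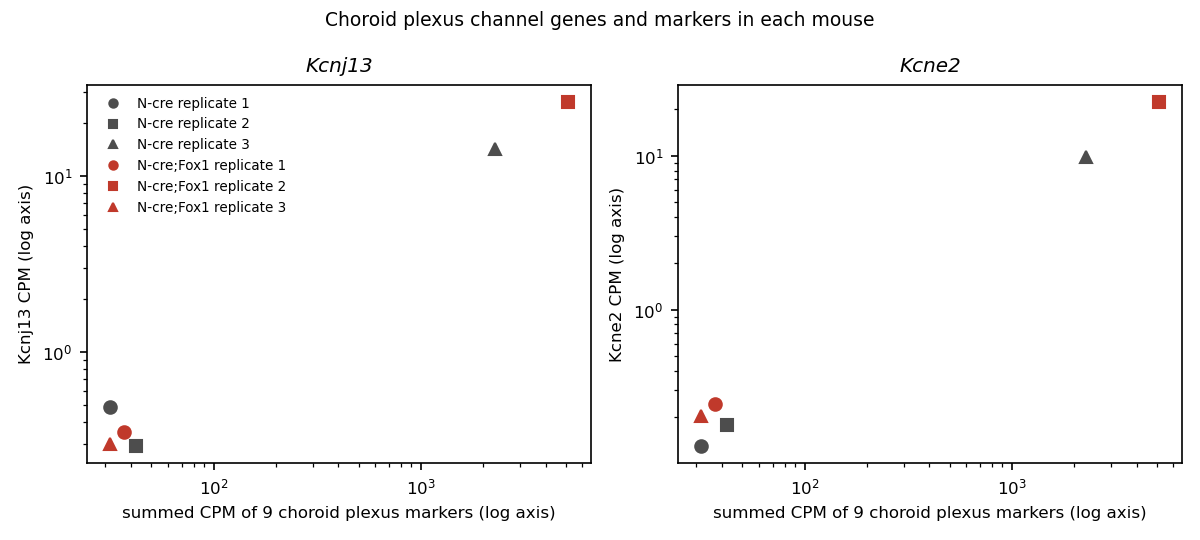
CPM of Kcnj13 (left) and Kcne2 (right) against the summed CPM of 9 choroid plexus markers, 1 point per mouse, both axes log. N-cre replicate 3 and N-cre;Fox1 replicate 2 stand apart from the other 4 mice on both axes.

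Of the 377 isoforms, 279 are annotated as protein coding, 74 had no count in any mouse and 184 passed the filter. By edgeR 0 member isoforms were called at an adjusted p under 0.05, as were 0% of all 50556 isoforms, and limma-voom called 0. DESeq2 called 3 member isoforms, Kcnj10-201, Kcnh1-203 and Kcnab1-204, among 215 of all isoforms. At an unadjusted p under 0.05 stood 7 member isoforms (3.8%, background 4.78%), 4 higher (background 2.62%) and 3 lower (background 2.17%). Without N-cre replicate 1 the 7 became 13 (6.6%, background 5.05%), without N-cre;Fox1 replicate 2 they became 12 (6.15%, background 4.47%) and without N-cre;Fox1 replicate 3 they became 11 (5.7%, background 4.07%). The genotypes did not overlap for 18 (9.78%), against 11.5% of all isoforms. In the members 5.31% to 5.95% of the counts per mouse fell on isoforms not annotated as protein coding, against 10.5% to 10.8% over all genes. For 52 of the 81 tested genes 1 isoform took at least 90% of the counts. The leading isoform was not annotated as protein coding in 3 of them, Kcnt1-206 (retained intron, 50.8%), Kcnn3-202 (retained intron, 90.1%) and Kcna6-201 (nonsense-mediated decay, 84.3%).

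Both isoforms with the smallest p were listed at 0 in all N-cre;Fox1 mice. They passed the filter on low counts only through the N-cre mice, so their place in the order of p is partly set by that filter. Kcnh1-203, a short form of the EAG channel gene, had 59.9, 96.1 and 34.8 expected counts in N-cre mice. It held 0.977% of the counts of Kcnh1 and has 89 of its 5165 nt outside Kcnh1-201. Kcnab1-204, a transcript without a coding sequence, had 27.6, 13.25 and 34.7 expected counts in N-cre mice and has 213 of its 2849 nt outside Kcnab1-201. It held 0.194% of the counts of Kcnab1, and the sums of both genes overlapped between genotypes (log2 differences -0.01 for Kcnh1 and -0.05 for Kcnab1). Both forms share most of their bases with a longer form of their gene. Whether a listed 0 rests on the division of shared reads was not tested, and no fold is drawn from it.

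The other isoforms at an unadjusted p under 0.05 were Kcnj10-201, Kcns3-201, Kcnip2-204 and Kcnj3-203, all higher, and Kcnn4-202, which was lower. Kcnn4-202 stood at 0.0664 to 0.115 CPM in N-cre;Fox1 against 0.198 to 0.339 CPM in N-cre mice, and it too passed the filter only through the N-cre mice. Next in order came Kcnh2-203, higher in every N-cre;Fox1 mouse, and Kcnk2-203, Kcnk2-202 and Kcna4-202 with negative differences, all at an unadjusted p between 0.0595 and 0.0762. Both Kcnk2 forms overlapped between genotypes, at log2 differences of -0.32 for Kcnk2-203 and -0.48 for Kcnk2-202, beside 0.02 for Kcnk2-201, which takes 55.6% of the counts of the gene.

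Isoform shares, the percent of a gene's counts on 1 isoform, are free of library size. They depend on how RSEM divides shared reads, and some varied widely within a genotype. Kcnk13-204 took 15.4%, 0% and 47.2% of its counts in N-cre mice. Shares were taken for 78 isoforms of 36 member genes with a mean of at least 100 counts and a mean share of 5% to 95%. The genotypes did not overlap for 9 isoforms (11.5%), 6 higher and 3 lower, against 11.6% of the isoforms of all genes. Each of the 9 has an exact permutation p of 0.1, the smallest possible here. The median size of the difference over the 78 isoforms was 1.48 percentage points.

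**Figure D5:**
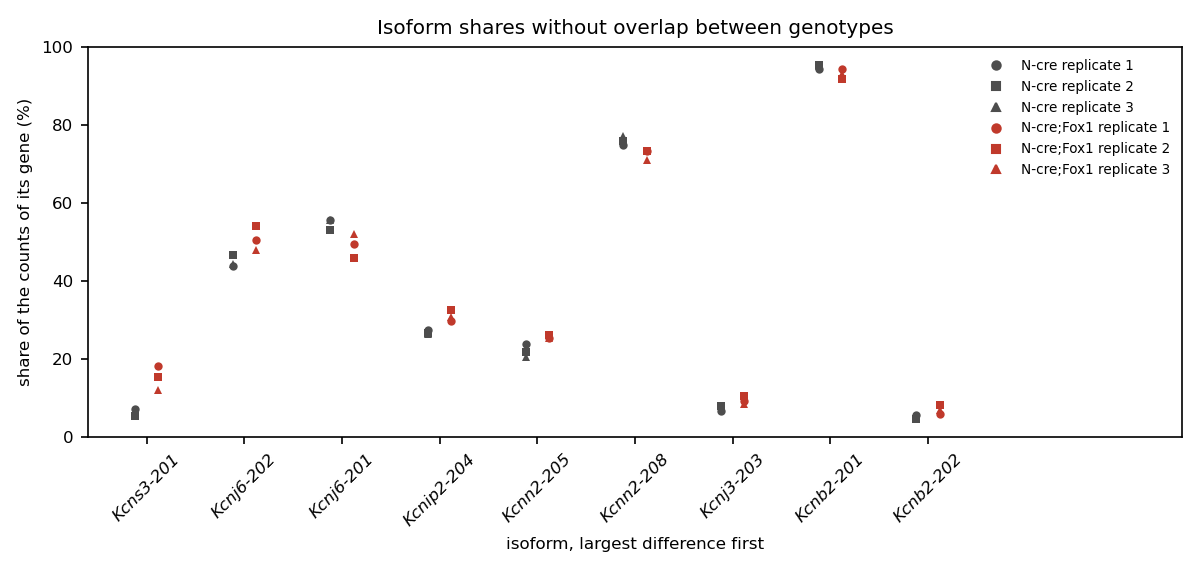
Share of the counts of its gene (%) taken by each of the 9 member isoforms whose genotypes did not overlap, 1 point per mouse, in order of the size of the difference. Kcns3-201 shows the largest step, with every N-cre;Fox1 mouse at 11.9% or more and every control at 7.19% or less.

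Kcns3, a silent subunit that modifies Kv2 channels, showed the largest of these differences. Kcns3-201 took 7.19%, 5.20% and 6.01% of its counts in N-cre and 18.2%, 15.4% and 11.9% in N-cre;Fox1 mice, which is 9.04 percentage points more on average. In CPM it was at 0.889, 0.554 and 0.614 against 2.06, 1.54 and 1.28, without overlap and with no adjusted call (log2 difference 1.23, SE 0.29, unadjusted p = 0.00494, adjusted p = 0.833). The gene lies on chr12:11090202-11151056. Kcns3-201 and the major Kcns3-203, which overlapped between genotypes, share the same 1473 coding bases, but Kcns3-201 has 724 nt that Kcns3-203 lacks, at its 5′ and 3′ ends. The sum of Kcns3 overlapped, at a log2 difference of -0.05.

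In Kcnj6, the gene of a G protein-gated channel subunit of hippocampal dendrites, the balance of both main isoforms differed. Kcnj6-202 took 43.7%, 46.6% and 44.4% in N-cre and 50.5%, 54.1% and 47.8% in N-cre;Fox1 mice, and Kcnj6-201 was lower by nearly as much (-5.70 percentage points). The isoforms part at the junction shown above, so that they encode different C-terminal ends, 1275 coding bases in Kcnj6-202 and 1242 in Kcnj6-201. Their gene sum overlapped between genotypes at a log2 difference of 0.06.

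Kcnip2-204 keeps an intron of 758 nt at chr19:45796333-45797090, the boundary of which is printed above, and is annotated as a retained-intron transcript. It took 27.4%, 26.6% and 26.3% of the counts of Kcnip2 in N-cre and 29.6%, 32.6% and 30.6% in N-cre;Fox1 mice. In CPM it was at 60.1, 58.9 and 58.7 against 70.8, 64.2 and 67.6 (log2 difference 0.19, SE 0.045, unadjusted p = 0.00526, adjusted p = 0.843). The spliced coding form Kcnip2-209 took 67.3%, 70.2% and 65.8% in controls, against 67.2%, 60.04% and 61.6% with the allele, which overlap. The libraries were made from total RNA, and whether the reads on the intron come from a mature transcript was not tested.

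The other shares without overlap were in Kcnn2, Kcnj3 and Kcnb2, where Kcnn2-205 and Kcnn2-208 have the same coding bases, as do Kcnb2-202 and Kcnb2-201. Kcnn2-205 took 23.8%, 21.6% and 20.4% in N-cre and 25.2%, 26.1% and 25.3% in N-cre;Fox1 mice, and Kcnn2-208, nested in it, was lower by 3.5 percentage points. With counts divided by isoform length the difference of Kcnn2-205 was 2.27 points in place of 3.59. Kcnj3-203 took 6.46%, 7.97% and 7.86% in N-cre and 9.09%, 10.4% and 8.47% in N-cre;Fox1 mice. It has no base outside Kcnj3-201 and the same coding bases, so its count rests on the division of shared reads, while Kcnj3-202 has a shorter coding sequence (705 against 1503 bases). Kcnj3-201 and Kcnj3-202 were each lower by about the same amount (-0.92 and -0.96 percentage points) and overlapped between genotypes. The difference of Kcnj3-203 was 1.87 points, and 3.92 per length. Kcnb2-202, which differs from Kcnb2-201 in its 5′ exon and its shorter 3′ end, took 1.87 percentage points more, or 5.11 per length.

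Rbfox proteins are known to bind UGCAUG in RNA, and TGCATG was therefore counted in the highest isoform of each gene, on the transcript strand only and with overlapping matches allowed. It was present in 58 of the 81 tested members (71.6%) and in 49.3% of 18904 genes. The members' transcripts were longer, with a median of 3748 against 2574 nt, and held 0.455 sites per kb against 0.29 over all genes. Kcna2-201 and Kcnq3-201 held the most, 11 each. Members with a site had a median log2 difference of -0.01, and those without a site one of -0.04. All 6 genes at an unadjusted p under 0.05 held at least 1 site, beside 71.6% of all tested members. Kcnt1-206, a retained-intron transcript without a coding sequence, held 7. A link between sites and differences was not tested. The windows of the abundant genes Kcnj10, Kcnc4, Kcnk2 and Kcnf1 are shown to place the letters in their transcripts, with the site in capitals.
Kcnj10-201: atctatacagaaTGCATGcccggatctctg
Kcnc4-201: ctgtgccctgtcTGCATGccctcaactgtc
Kcnk2-201: atttaaacattgTGCATGgtgacctcaaag
Kcnf1-201: tccgtggtcatgTGCATGggtaccataccc
The windows lie at chr1:172371828-172371857 on the plus strand and, on the minus strand, at chr3:107438356-107438385, chr1:189209685-189209714 and chr12:17175568-17175597. The sites shown for Kcnj10, Kcnc4 and Kcnk2 are in the 3′ UTR, and that of Kcnf1 is in its coding sequence. Kcnk2-201 and Kcnf1-201 each hold 1 further site, in the 5′ UTR. Kcnj10-201 held 1 site, and 78.4% of 1230 genes with a transcript within 10% of its length held at least 1. These matches are letters in an annotated transcript, and binding was not measured.

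Proteins that bind or anchor potassium channels were read as a further list of 33 genes, of which 32 were tested. Of these, 10 were positive and 22 negative with a median log2 difference of -0.02, and 0 had an unadjusted p under 0.05 by edgeR. Dpp6 and Dpp10, which associate with Kv4 channels, were at -0.01 (SE 0.055) and -0.15 (SE 0.11). Abcc8, the sulfonylurea receptor of the ATP-sensitive channel, was at -0.03 (SE 0.045). Gabbr1, a GABA-B receptor subunit upstream of G protein-gated channels, was at 741, 726 and 732 CPM in N-cre and 712, 664 and 716 CPM in N-cre;Fox1 mice, without overlap (unadjusted p = 0.12).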

How the data were processed

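Stranded libraries were made from hippocampal total RNA, 1 per mouse (3 controls, 3 with the Rbfox1 allele). Per the study's methods and the submitters' processing notes, the authors trimmed reads with Cutadapt 1.18, aligned them to mm10 with STAR 2.5.2b and estimated counts per isoform with RSEM 1.3.0 on GENCODE M16; the deposited values are these expected counts, unnormalized. The strand setting of the counting is not given in the sources used here. Expected counts were summed per symbol for genes, rounded, filtered (filterByExpr, at least 10 counts), scaled by TMM and tested by genotype with edgeR 4.0.16 (quasi-likelihood, R 4.3.3). CPM uses TMM library sizes, and TPM uses M21 lengths (364 member isoforms of the same version, 13 of another). Antisense or overlapping genes may share reads. DESeq2 1.42.0 and limma 3.58.1 were alternatives; the test was tried on simulated counts. Genes named were the 3 highest in TPM per class, those at an unadjusted p under 0.05, the 6 isoforms of smallest p in each direction, the 6 genes with the largest share differences without overlap, channels known from astrocytes and choroid plexus, and Rbfox1; other members and the partner genes named were chosen after their values were seen. Some results that the rule would name are not reported here. Members, lists and tests were chosen with earlier results of these data known.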

Additional observations from a re-analysis of the deposited data

How the results depend on the processing

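Fits with other normalizations, filters, tools, terms and mice left out kept the direction of the 6 genes and of the isoforms named by p. The unadjusted p stayed under 0.05 in 16 of 16 fits for Kcnj10, 9 for Kcnc4, 8 for Kcnf1 and for Kcnt1, 6 for Kcnk2, and 9 of 15 for Kcnn4. The adjusted count of genes went from 0 to 1 without a filter and to 1 by the DESeq2 Wald test, and that of isoforms from 0 to 3 by DESeq2. At an unadjusted p the genes numbered 2 by DESeq2 (6 by edgeR), and the isoforms 4 with at least 10 counts in every mouse and 13 without both mice with choroid plexus counts, a setting chosen after seeing the data (7 in all mice). Leaving out 1 mouse at a time gave 2 to 9 genes, 9 to 13 isoforms and 13 to 19 shares without overlap (9 in all mice; fewer mice overlap less often by construction). With the replicate number as a replicate block 11 isoforms and 6 genes stood at an unadjusted p under 0.05 and 0 at an adjusted one. With a term for Xist 10 isoforms and 9 genes stood at an unadjusted p under 0.05. The numbers are not known to pair mice (gene-level correlations of deviations 0.378, -0.0951 and -0.211). Kcnj13 turned to -0.11 under the block and -0.27 without both mice, and ran from -3.89 without N-cre;Fox1 replicate 2 to 4.51 without N-cre replicate 3; Kcne2 ran from -3.88 to 5.64 without the same mice. Rbfox1 ran from -0.034 without N-cre;Fox1 replicate 1 to 0.078 without N-cre;Fox1 replicate 2. Over all features, 5 genes and 0 isoforms were called by edgeR, 49 and 215 by DESeq2 and 45 and 10 without a filter, 11 genes with a term for Xist, 6 isoforms with at least 10 counts in every mouse, and 2 to 29 genes as mice were left out (29 without N-cre;Fox1 replicate 1). Auxiliary subunits took 33.1% of member TPM by the highest isoform only. Per length, the share difference of Kcnb2-202 was 5.11, of Kcnj3-203 3.92 and of Kcnn2-205 2.27 percentage points. The cause of these shifts was not tested. Depth limits the members under 1 TPM.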

Other observations

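Of the Kcn symbols outside the rule, Kcnq1ot1, an imprinted noncoding RNA, was at 9.66, 9.47 and 9.45 CPM in N-cre and 8.47, 8.97 and 8.75 CPM in N-cre;Fox1 mice. These values do not overlap, and the unadjusted p was 0.138. Kcnd3os, antisense to Kcnd3, was at 0.712, 0.916 and 0.716 CPM against 0.632, 0.686 and 0.677 CPM, also without overlap (unadjusted p = 0.326). Kcnrg overlapped between genotypes, with 0.405 to 0.603 CPM in N-cre and 0.353 to 0.772 CPM in N-cre;Fox1 mice.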
